A study of Homo sapiens with 9 samples.

Results

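The oncofetal genes described here are LIN28A, LIN28B, TRIM71, IGF2BP1, IGF2BP2, IGF2BP3, HMGA1, HMGA2, SALL4 and DPPA4. They were taken by name, and all 10 were found among the 60708 genes of the count files. Their expression was read from the RNA-sequencing counts of 9 libraries of untreated cells grown in DMEM with 10% FBS. The paper describes the cells as MDA-MB-231, an established line of basal triple-negative breast cancer. Whether all the libraries came from this line was not tested, and values that bear on it are given below. Of the 9 libraries, 3 were labelled WT, 3 CS16 and 3 CS19. CS16 and CS19 are single-cell clones selected with puromycin after CRISPR/Cas9 editing of SNAI1, which encodes a transcription factor of the epithelial-mesenchymal transition, with a pool of guides and donor plasmids. Each clone stands for itself only. No label says that the 3 libraries of a group came from separate cultures, so the p-values measure the spread between libraries, which may be technical.

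Oncofetal genes are active in the embryo, are switched off in most adult tissues and come back in many tumours. The genes here are tied together by let-7, a family of microRNAs that accumulates as cells differentiate. LIN28A and LIN28B bind let-7 precursors and block their maturation, TRIM71 is a ubiquitin ligase and RNA-binding repressor of early development, and the IGF2BP proteins bind and stabilise mRNAs. HMGA1 and HMGA2 are chromatin proteins that bind AT-rich DNA. SALL4 and DPPA4 are nuclear factors of pluripotent cells. LIN28B, TRIM71, IGF2BP1 and HMGA2 are textbook targets of let-7, which binds the 3′ UTR of an mRNA through its seed, bases 2 to 8 of the microRNA.

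The RefSeq table held 11 mature human microRNAs with the let-7 seed GAGGUAG. The sequences below are those whose host transcripts are described further on, and the capitals mark the seed they share.
let-7a: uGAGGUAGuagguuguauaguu
let-7b: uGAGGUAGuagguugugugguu
let-7c: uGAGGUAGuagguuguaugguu
let-7d: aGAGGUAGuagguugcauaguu
let-7e: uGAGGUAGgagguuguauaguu
let-7f: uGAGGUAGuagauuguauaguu
let-7g: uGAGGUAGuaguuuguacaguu
let-7i: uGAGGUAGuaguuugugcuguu
miR-98: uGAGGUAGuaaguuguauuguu

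The DNA letters that pair with this seed, CTACCTC, were searched on the transcript strand of the main (MANE) transcript of each gene. The 3′ UTR of TRIM71 held 6 of them, and those of LIN28B, IGF2BP1 and HMGA2 held 4 each. LIN28A, IGF2BP2, IGF2BP3, SALL4 and HMGA1 had 1 each, and DPPA4 had 0. Among 18780 MANE 3′ UTRs, 9.8% held at least 1 match, 1.17% at least 2 and 12 (0.064%) at least 4, and these 12 included the 4 members. The highest number in any UTR was the 6 of TRIM71. UTRs differ in length, and of the 5861 UTRs with at least 2000 bases, 21% held a match and 11 held at least 4. An 8mer is a match followed by an A. TRIM71 had 4 of these, IGF2BP1 3, LIN28B 2, and HMGA2, LIN28A, IGF2BP2, IGF2BP3 and SALL4 1 each, while the match of HMGA1 lacked the A. A match is a feature of the letters and was not measured as a site in these cells.

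Of the members with 4 or more matches, the 8mers alone are listed with the bases before them, because these genes carry the largest numbers, and the match of HMGA1 is listed for contrast. Capitals mark the match and, in an 8mer, its A. Coordinates are on GRCh38, and all of these genes lie on the + strand.
TRIM71, chr3:32891961-32891990: aaagtacaacattgcttaagtcCTACCTCA
TRIM71, chr3:32892041-32892070: cctgtgaagtgataatttctatCTACCTCA
TRIM71, chr3:32895798-32895827: actgactgcttttgctgagtttCTACCTCA
TRIM71, chr3:32895821-32895850: tacctcacttgtggcaagtcatCTACCTCA
LIN28B, chr6:105078805-105078834: ttcctttacccggttgcaaagtCTACCTCA
LIN28B, chr6:105081414-105081443: ttactctgtttacagcaaaaggCTACCTCA
IGF2BP1, chr17:49051054-49051083: gcaatgctgtgtgcgaagtaaaCTACCTCA
IGF2BP1, chr17:49053691-49053720: tgggaaccagcagtgctagtaaCTACCTCA
IGF2BP1, chr17:49054345-49054374: gctacgagtataaatggattaaCTACCTCA
HMGA2, chr12:65963293-65963320: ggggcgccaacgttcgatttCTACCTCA
HMGA1, chr6:34245821-34245850: tccatttttcctctgttcacaaaCTACCTC
The HMGA2 8mer began at base 21 of the UTR and the first LIN28B 8mer at base 44, close behind the stop codon. In TRIM71, 8mers began at bases 172 and 252 and again at bases 4009 and 4032.

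**Figure D1:**
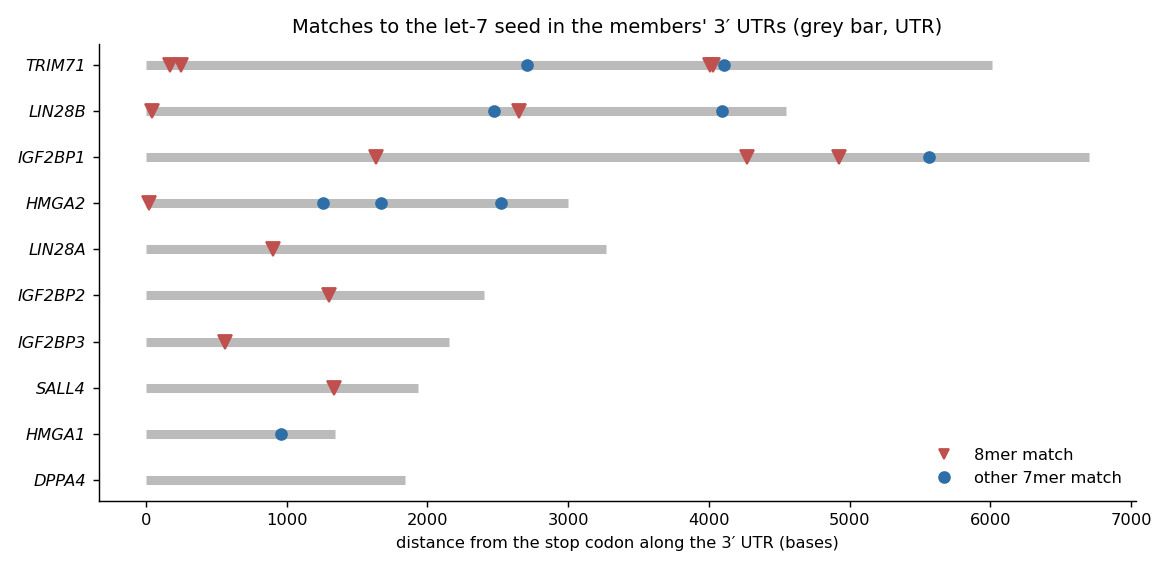
Grey bars are the 3′ UTRs of the 10 members from the stop codon, on an axis of bases; triangles are 8mer matches to the let-7 seed and circles are the other 7mer matches. TRIM71 carries 6 matches, LIN28B, IGF2BP1 and HMGA2 carry 4 each, and DPPA4 carries 0.

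The libraries held between 19527195 and 28627777 counted read pairs, and 3 counts, taken as the floor of detection, equalled 0.0982 to 0.171 CPM, which are counts scaled by TMM to a common library size. Several measurements bear on the labels. For these clones, the paper reports no detectable SNAI1 protein, lower SNAI1 mRNA at each exon by RT-qPCR, and deletions in the SNAI1 locus. It also reports lower CD44 and EGFR mRNA and lower VIM protein after the knockout. The counts here are per gene and were not split by exon. The targeted gene SNAI1 had 16, 38 and 21 counts in WT, 26, 40 and 49 in CS16, and 57, 94 and 94 in CS19, and thus was not lower in the libraries labelled SNAI1-KO (log2 fold change 0.89 ± 0.42 SE, adjusted p = 0.0838, edgeR's quasi-likelihood test), and without WT-2 or CS16-1 it passed as higher (1.40 and 1.03, adjusted p = 0.0146 and 0.0454). MTAP, CDKN2A and CDKN2B, neighbours on chromosome band 9p21, had 0 counts in all WT libraries and 2139 to 3137, 1106 to 1575 and 235 to 326 in the clones. All 10 markers of MDA-MB-231 cells fell, and their summed level was 9860 to 13200 CPM in WT against 531 to 588 in the clones, with CD44 and S100A6 at no more than 2 counts in each clone library. Of the embryonic kidney markers, 6 of 9 tested rose and 2 fell. Their sum was 76.0 to 119 CPM in WT and 141 to 178 in the clones. The largest change was in HOXA11, which had 0 counts in each WT library and 554 to 1260 in the clones. PAX8, among those that fell, had 202 to 452 counts in WT and no more than 2 in the clones. Of the mammary luminal markers 6 of 7 tested fell, and the sum was 1470 to 2140 CPM in WT and 57.5 to 102 in the clones. The 1 that rose was FOXA1, with 0, 0 and 2 counts in WT and 63 to 494 in the clones. These rises and falls are at an adjusted p under 0.05 (edgeR), which 63.7% of all genes tested passed. The haematopoietic list summed to 20.8 to 25.1 CPM in WT and 2.55 to 3.21 in the clones, and the hepatocyte list to 29.2 to 42.3 and 0.191 to 0.458, with the defining markers CD3E, ALB and TTR near 0 throughout. WT-2 was unlike the other WT libraries. In a chi-square test of counts over genes, the statistic per degree of freedom was 221 and 271 for WT-2 against them and 16.9 for WT-1 against WT-3. What part these differences had in the results on the members was not tested, and each fold below compares the clone libraries with the WT libraries as they are labelled.

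Of the 10 members, 4 were called higher and 1 lower in the 6 libraries labelled SNAI1-KO than in WT. These libraries come from CS16 and CS19 alone, so they are not independent replicates of a knockout. For a call, the log2 fold change had to be 2 or more, up or down, with an adjusted p (Benjamini-Hochberg) under 0.05 in edgeR's quasi-likelihood test over all 19631 genes that passed its filter on low counts. Of all genes tested, 12.6% were called higher and 14.3% lower. LIN28B, TRIM71, IGF2BP1 and SALL4 were higher and HMGA1 was lower. IGF2BP3 and HMGA2 rose and IGF2BP2 fell by less than the fold required, so that 8 of 8 members tested passed the adjusted p alone, which 63.7% of all genes did. LIN28A and DPPA4 had too few counts to be tested. LIN28B, TRIM71, IGF2BP1 and SALL4 passed the filter only through the clone libraries and so had to differ, for which reason the members' median log2 fold change of 3.20, beside -0.004 for all genes, is a description only. In total RNA of a culture, fewer cells with a transcript and less of it per cell cannot be told apart.

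**Figure D2:**
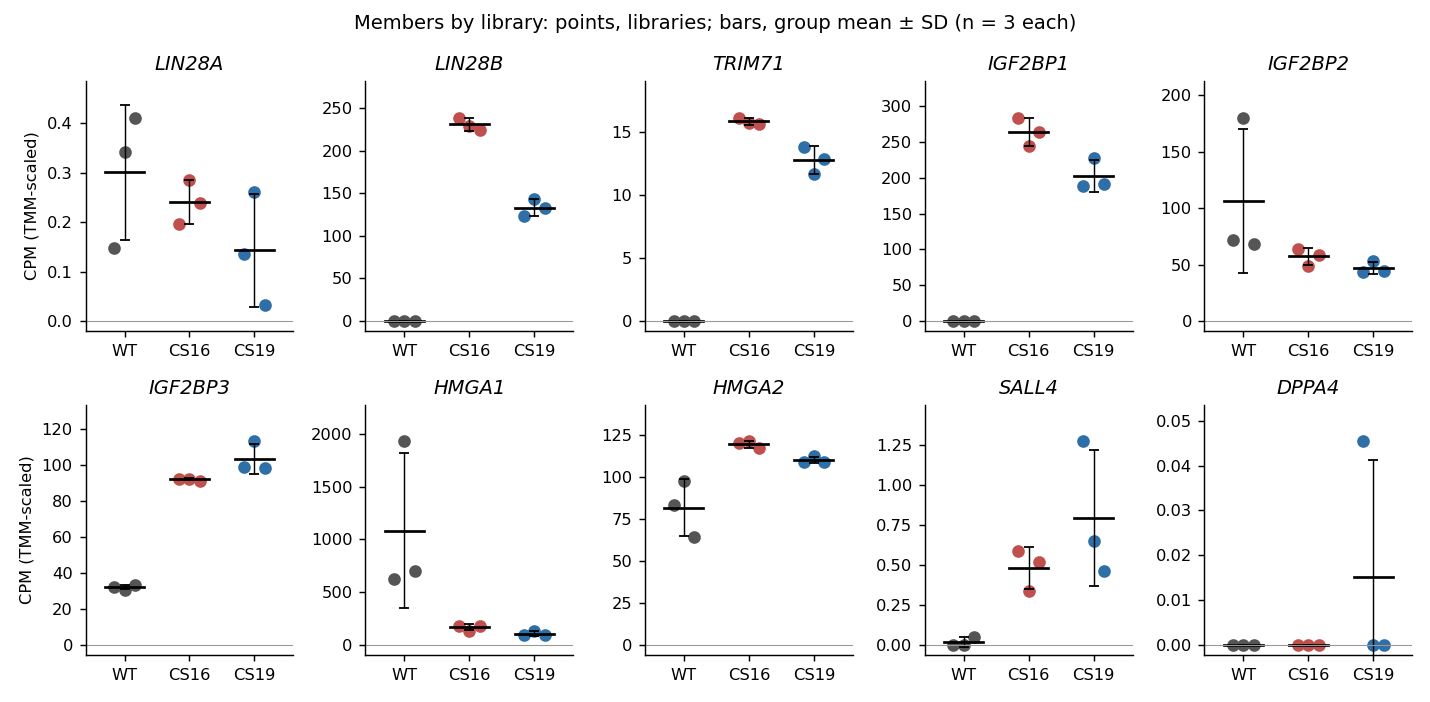
Each panel shows 1 member in CPM on a linear axis of its own, with 1 point per library and the group mean and SD (n = 3). LIN28B, TRIM71 and IGF2BP1 lie at or next to 0 in all WT libraries and between 11.6 and 284 CPM in the clones, while HMGA1 falls from 620 CPM or more to 182 or less.

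LIN28B (chr6:104936616-105083332, + strand) showed the largest lower bound. It had 0 counts in each of the 3 WT libraries. In CS16 it had 4865, 4792 and 5655 counts and in CS19 2701, 3305 and 4054. The groups did not overlap, and levels averaged 231 ± 6.98 CPM in CS16 and 133 ± 10.3 in CS19 (SD, n = 3 each). With WT set at the floor of 3 counts per library, LIN28B was at least 1460-fold higher in CS16 and at least 843-fold higher in CS19 (adjusted p = 7.43e-06 and 7.74e-06, edgeR). Its paralog LIN28A, which blocks let-7 in the cytoplasm, had 3, 6 and 8 counts in WT, 4, 6 and 6 in CS16 and 3, 6 and 1 in CS19. All 9 libraries thus held traces of LIN28A, the groups overlapped, and no fold was tested. Per kilobase of exon, LIN28B made up 99.7% or more of the LIN28 transcripts in every clone library.

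TRIM71 (chr3:32817997-32897824, + strand), the relative of the worm let-7 target lin-41, also had 0 counts in all WT libraries. It had 329, 328 and 391 counts in CS16 and 304, 268 and 391 in CS19. It was at least 100-fold higher in CS16 and at least 80.8-fold higher in CS19 than the floor of 3 counts in WT (adjusted p = 2.81e-05 and 3.01e-05). The level was modest, 15.8 ± 0.306 CPM in CS16 and 12.7 ± 1.10 in CS19 (SD, n = 3), with all 6 values above WT.

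IGF2BP1 (chr17:48997385-49056145, + strand), the family member most restricted to embryonic tissue, went from 0, 1 and 1 counts in WT to 5789, 5124 and 6632 in CS16 and 4158, 5249 and 5846 in CS19. On the CPM scale it was the most abundant member in both clones, at 264 ± 19.6 and 203 ± 21.7 (SD, n = 3). The ratio of summed counts was 7560 in CS16 (95% counting interval 2090 to 62400) and 5780 in CS19 (1600 to 47700), wide because WT held 2 counts in all. These intervals cover counting error only (adjusted p = 4.18e-06 and 3.59e-06, edgeR).

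IGF2BP3 (chr7:23310209-23470491, - strand) was present in every library. It had 654, 537 and 645 counts in WT, 1878, 1934 and 2291 in CS16, and 2177, 2610 and 2993 in CS19, and the groups did not overlap. It rose 2.93-fold in CS16 (log2 1.55 ± 0.15 SE, adjusted p = 0.000136) and 3.32-fold in CS19 (1.73 ± 0.17, adjusted p = 0.000107). Of its exon bases, 17.8% overlap MALSU1 on the opposite strand. Pairs that touch both genes went uncounted, and MALSU1 itself did not pass the test (log2 0.09 ± 0.20 SE, adjusted p = 0.720).

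IGF2BP2 (chr3:185643130-185825042, - strand), the member that adult tissues keep, went the other way. It had 1450, 3147 and 1324 counts in WT, 1301, 1024 and 1475 in CS16, and 946, 1232 and 1354 in CS19. The CPM values were 68.0 to 180 in WT and 43.0 to 63.8 in the clones, so the groups did not overlap, but the highest value was that of WT-2. IGF2BP2 was 2.05-fold lower in the clone libraries (log2 -1.03 ± 0.28 SE, adjusted p = 0.00673). Without WT-2, the difference shrank to -0.43 (adjusted p = 0.0212). Taken alone, CS19 passed the test (-1.15 ± 0.39, adjusted p = 0.0413) and CS16 did not (-0.87 ± 0.40, adjusted p = 0.0979). Neither outcome was firm. Leaving out any 1 of the 3 CS19 libraries ended the first (adjusted p between 0.0903 and 0.129), and leaving out WT-2 or WT-3 let CS16 pass (0.0310 and 0.0469).

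As a family, the IGF2BP transcripts changed in amount and in make-up. Summed per kilobase of exon, they stood at 16.6 to 37.3 CPM per kilobase in WT, 45.4 to 52.2 in CS16 and 39.3 to 46.9 in CS19. The lengths take in all annotated exons, not the transcript made, and the shares below rest on them. IGF2BP2 supplied 76.6 to 90.4% of this sum in WT and 20.2 to 22.9% in the clones. IGF2BP1 supplied at most 0.032% in WT and on average 56.1% in CS16 and 50.1% in CS19, within 1 percentage point in each clone. The share of IGF2BP3 was 9.63 to 23.3% in WT and 20.7 to 29.5% in the clones, so its ranges overlapped although its level rose.

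**Figure D3:**
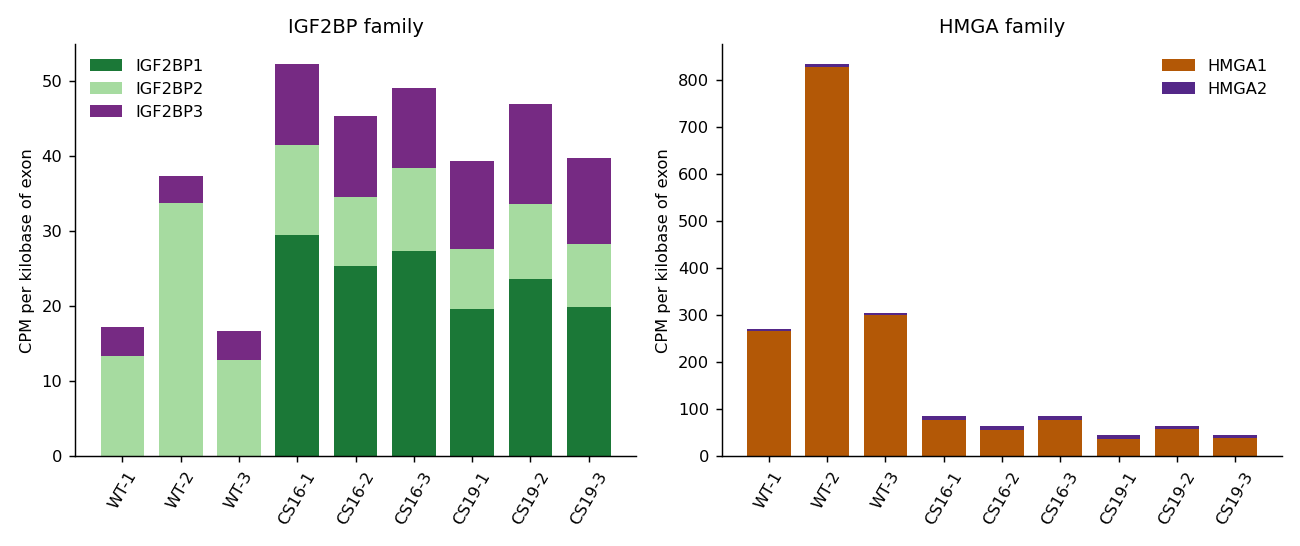
Stacked bars give CPM per kilobase of exon for each library, on the left for IGF2BP1, IGF2BP2 and IGF2BP3 and on the right for HMGA1 and HMGA2. IGF2BP1 makes up on average 56.1% of the IGF2BP sum in CS16, 50.1% in CS19 and at most 0.032% in WT, and the HMGA sum falls from between 272 and 835 to between 45.1 and 86.1.

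HMGA1 (chr6:34236873-34246231, + strand) was the most abundant member in WT and the only one called lower. It had 12565, 33816 and 13586 counts in WT, 3661, 2739 and 4582 in CS16, and 1936, 3107 and 2796 in CS19. The groups did not overlap, but WT-2 lay at 1930 CPM against 620 and 697 in the other two WT libraries. HMGA1 fell 8.05-fold (log2 -3.01 ± 0.36 SE, adjusted p = 1.74e-05), and without WT-2 the log2 fold change was -2.30 (adjusted p = 6.95e-06), still a call. In CS16 the value was -2.69 ± 0.47 (adjusted p = 0.00222) and -2.01 without WT-2, at the edge of the fold required. In CS19 it was -3.33 ± 0.50 (adjusted p = 0.000951) and -2.64 without WT-2. Each annotated HMGA1 processed pseudogene had at most 18 counts in any library.

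HMGA2 (chr12:65824460-65966291, + strand) did not follow HMGA1. It had 1682, 1713 and 1245 counts in WT, 2443, 2527 and 2947 in CS16, and 2405, 2581 and 3335 in CS19. In CPM, WT ranged from 63.9 to 97.7 and the clones stood above it at 119 ± 1.74 and 110 ± 1.55 (SD, n = 3). HMGA2 rose 1.41-fold over all clone libraries (log2 0.49 ± 0.15 SE, adjusted p = 0.0118), in CS16 by 0.57 ± 0.20 (adjusted p = 0.0445) and in CS19 by 0.47 ± 0.21, which did not pass (adjusted p = 0.0908). The CS16 result was lost without any 1 of the other 5 libraries (adjusted p between 0.0868 and 0.115). Without WT-2 both clones passed, at 0.70 (adjusted p = 4.42e-05) and 0.60 (adjusted p = 7.17e-05). HMGA2 shares 2.5% of its exon bases with the antisense gene HMGA2-AS1. Counts of HMGA2-AS1 fell 15.3-fold (log2 -3.94 ± 0.29 SE, adjusted p = 2.96e-07), from 707, 842 and 311 in WT to between 36 and 76 in the clones. Strand was not used in counting, so these pairs are not shown to come from the antisense strand. HMGA2 made up 0.776 to 2.03% of the HMGA transcripts per kilobase in WT and 9.03 to 16.1% in the clones. These shares rest on the length of all annotated exons, 15070 bases for HMGA2 and 2327 for HMGA1.

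SALL4 (chr20:51782331-51802521, - strand), which in embryonic stem cells works with the core pluripotency factors, stayed near the limit of detection. It had 0, 0 and 1 counts in WT, 12, 7 and 13 in CS16, and 28, 15 and 14 in CS19. The ratio of summed counts over all clone libraries was 35.9 (95% counting interval 6.28 to 1430, adjusted p = 0.000426, edgeR). In CS16 SALL4 did not reach the filter and had no test, at a ratio of 27.6 (4.61 to 1120). DPPA4 had 0 counts in 8 libraries and 1 in CS19-1, below the floor of 3 counts in every library, so no fold can be given.

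**Figure D4:**
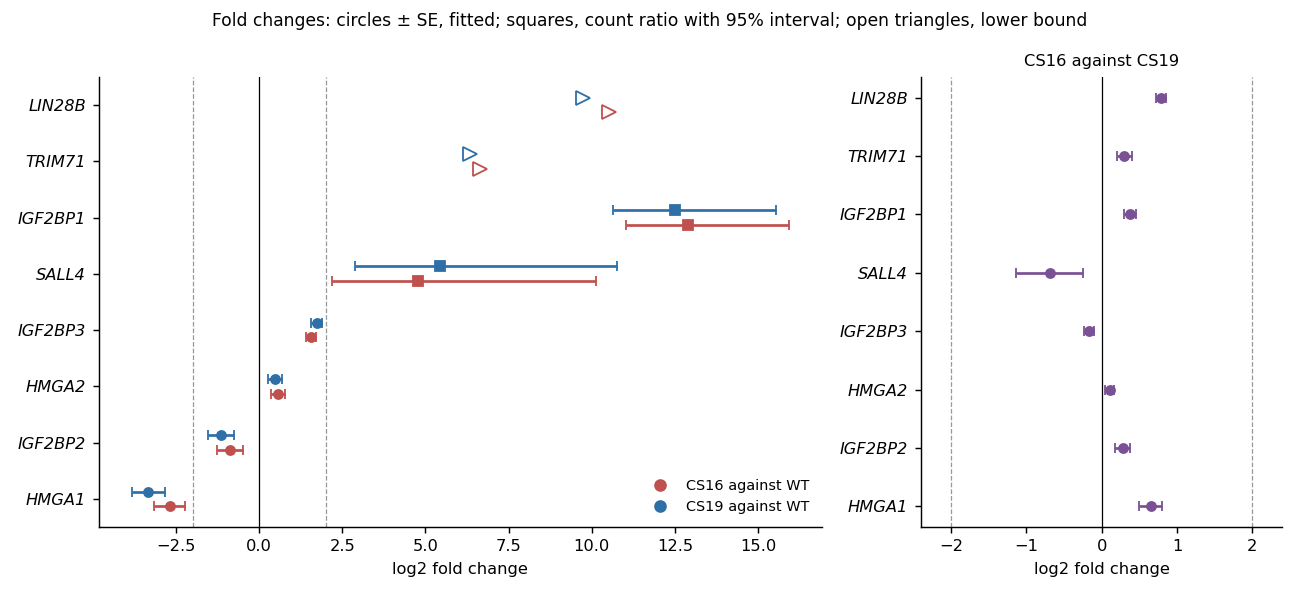
Log2 fold changes of the 8 members tested, each clone against WT on the left and CS16 against CS19 on the right, with dashed lines at the fold required for a call. Circles are fitted values with SE, squares are ratios of counts with a 95% counting interval, and open triangles are lower bounds against a WT group at 0; HMGA1 and IGF2BP2 lie below 0 in both clones and the other 6 above.

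In single clones, CS16 had 3 members called higher (11.8% of 18611 genes) and 1 lower (15.3%), and CS19 had 4 higher (12% of 18935 genes) and 1 lower (14.4%). Both comparisons share the WT libraries. At the adjusted p alone, 6 of 7 members tested passed in CS16, where 55.6% of all genes did, and 7 of 8 in CS19, where 52.9% did. The calls differed in SALL4, which the filter on low counts left untested in CS16. In the 7 alternatives that gave it a test there, SALL4 was called in all 7 (adjusted p between 0.00106 and 0.0116), so the clones are not shown to differ in it.

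Between the clones, no member was called (0 of 8), and calls were rare over all 17538 genes, 0.633% higher and 0.496% lower in CS16. At the adjusted p alone, 27.4% of all genes differed, and 4 of 8 members did, each higher in CS16. LIN28B was 1.73-fold higher in CS16 (log2 0.79 ± 0.07 SE, adjusted p = 2.09e-06), with 225 to 239 CPM against 123 to 143 in CS19. HMGA1 was 1.57-fold higher (0.65 ± 0.15, adjusted p = 0.00556), but its lowest CS16 library, at 131 CPM, lay below the highest of CS19, at 135. IGF2BP1 was 1.30-fold higher (0.38 ± 0.08, adjusted p = 0.00353) and TRIM71 1.23-fold (0.30 ± 0.10, adjusted p = 0.0382), both without overlap. TRIM71 no longer passed without CS16-1, CS16-3, CS19-2 or CS19-3 (adjusted p between 0.0811 and 0.110). Without CS16-2 or CS19-2, IGF2BP2 passed (0.00306 and 0.0104). IGF2BP2, IGF2BP3, HMGA2 and SALL4 did not pass, at log2 differences between -0.69 and 0.28.

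Levels per kilobase of exon were taken over all annotated exons of a gene, not the transcript made, so different genes compare only roughly. On this scale, the order of the members differed between WT and the clones. In WT it was HMGA1 (465 ± 316 CPM per kilobase, SD, n = 3), IGF2BP2 (19.9 ± 11.9), HMGA2 (5.41 ± 1.12) and IGF2BP3 (3.75 ± 0.148), each above the next in all 3 libraries, then LIN28A at 0.0755 and the other 5 at 0.00375 or less. In CS16 LIN28B (38.8 ± 1.17) and IGF2BP1 (27.4 ± 2.04) stood between HMGA1 (70.5 ± 12.5) and IGF2BP3 (10.8 ± 0.0712). The ranges of IGF2BP3 and IGF2BP2 overlapped there, as did those of LIN28B and IGF2BP1 in CS19. The order from HMGA1 to TRIM71 was the same in both clones. In CPM the order was another, with IGF2BP1 highest in both clones and HMGA2 overlapping HMGA1 in CS19.

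Mature let-7 is too short for these libraries and was not measured. The transcripts that carry let-7 hairpins were. Of 9 listed hosts, 8 were in the files and tested. Of these, 3 were called lower, 1 was called higher, and in all 6 fell and 1 rose at the adjusted p, with a median log2 fold change of -1.27 beside -0.004 for all genes. Among all genes tested, 14.3% were called lower, 12.6% were called higher and 63.7% passed the adjusted p. MIR100HG, which holds a let-7a hairpin, had 3174, 1522 and 2631 counts in WT and at most 3 in any clone library (log2 -11.37 ± 0.42 SE, adjusted p = 1.63e-09). It passed the filter only through WT and so had to differ. SPACA6 (let-7e) fell by 2.85 ± 0.19 SE on the log2 scale and MIRLET7BHG (let-7a and let-7b) by 2.56 ± 0.46. MIRLET7BHG had 394, 913 and 318 counts in WT, the highest in WT-2, and 44 to 201 in the clones. Without WT-2 its log2 fold change was -1.85 (adjusted p = 0.00169), below the fold required, and the hosts called lower numbered 2.
MIRLET7IHG (let-7i), HUWE1 (let-7f and miR-98) and MIRLET7A1HG (let-7a, let-7f and let-7d) fell by less, and WDR82 (let-7g) did not pass (adjusted p = 0.781). MIR99AHG (let-7c) rose from 5 to 11 counts in WT to 226 to 382 in the clones (log2 4.65 ± 0.28, adjusted p = 5.91e-08). A host transcript is not a measure of its microRNA.

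**Figure D5:**
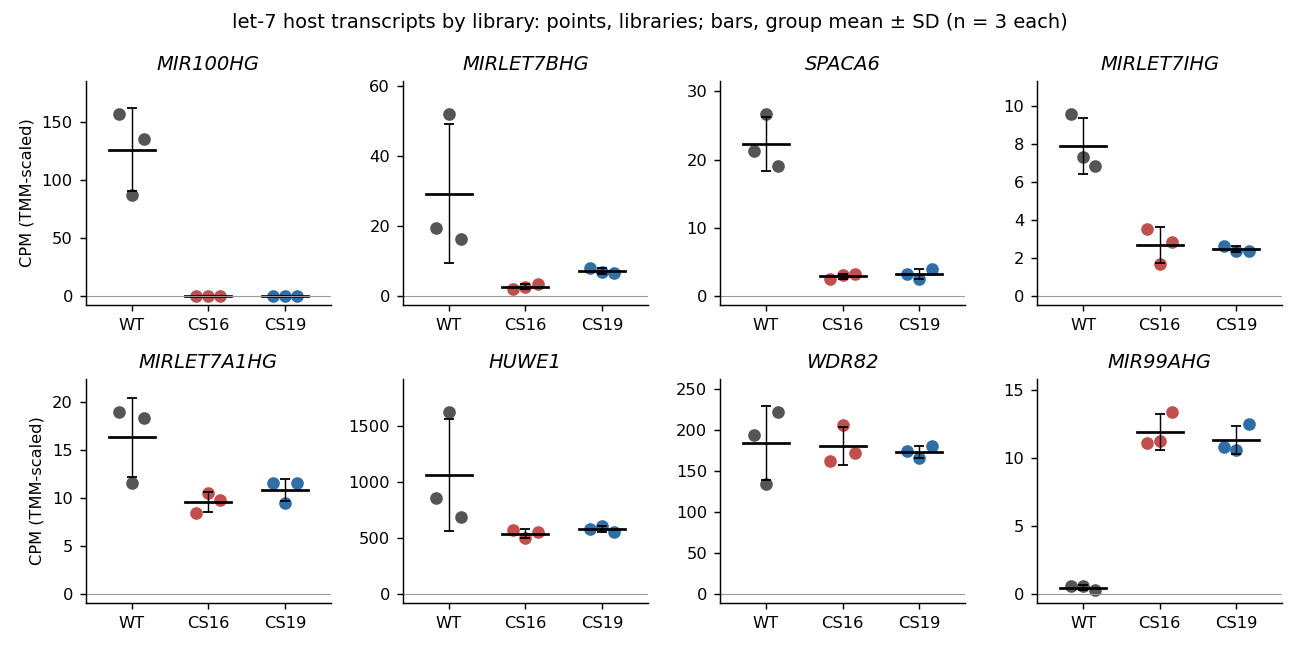
Each panel shows 1 host transcript of let-7 hairpins in CPM on a linear axis of its own, with 1 point per library and the group mean and SD (n = 3). MIR100HG falls to 0 or close to it in both clones, MIR99AHG rises, and WDR82 overlaps between the groups.

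Among the proteins that make, tail and load let-7, changes went both ways and none reached the fold required. Of 15 listed genes, all tested, 0 were called in SNAI1-KO against WT, 5 rose and 4 fell at the adjusted p, 6 did not pass, and the median log2 fold change was 0.09. The adjusted p was passed by 63.7% of all genes tested. Without WT-2, 8 of the 15 rose and 2 fell, around a median of 0.30. Named after their values were seen, DICER1, which cuts the hairpin, rose by 0.88 ± 0.17 SE on the log2 scale (adjusted p = 0.000623), AGO2, which carries the mature strand, fell by 1.23 ± 0.21 (adjusted p = 0.000291), and TUT4, which tails let-7 precursors bound by LIN28A, rose by 0.47 ± 0.13 (adjusted p = 0.00631).

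Other known targets of let-7 did not move in 1 direction. Of 25 listed, 24 were tested. Calls went up for 4 and down for 5, around a median log2 fold change of 0.01 (0.31 without WT-2, with as many calls each way). Among all genes tested, 12.6% were called higher and 14.3% lower. CCND2, a cyclin, had 49 to 74 counts in WT, 3331 to 3850 in CS16 and 1418 to 2126 in CS19 (log2 5.20 ± 0.47 SE, adjusted p = 1.81e-06). IGDCC3, a receptor-like gene of the embryo, had 0, 1 and 1 counts in WT and 82 to 265 in the clones (ratio 188, 95% counting interval 51.8 to 1550, adjusted p = 6.13e-06). THBS1, which encodes thrombospondin, fell by 10.55 ± 0.40 SE on the log2 scale and IL6 from between 129 and 248 counts to at most 2. IGDCC3 passed the filter only through the clones and IL6 only through WT, so each had to differ. Named after their values were seen, HIC2 and ARID3B were also called higher, and CCND1, IRS2 and CDK6 lower. ARID3B and CDK6 lay at the edge of the fold required, at log2 2.04 and -2.08. ARID3B lost its call without WT-1, WT-3 or CS16-1 (log2 1.80, 1.83 and just under 2) and stood at 2.69 without WT-2, and CDK6 lost it without WT-1 (-1.95) or any 1 CS19 library (-1.92 each). IRS2 moved from -3.49 to -2.64 without WT-2 and was still called.

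Genes with 4 or more matches to the seed were chosen by sequence alone, and all 12 were tested. Of these, 5 were called higher and 0 lower. LIN28B, TRIM71, IGF2BP1 and IGDCC3 were at or under the floor of 3 counts in every WT library, passed the filter only through the clones and so had to differ. The members among the 12 were also chosen with earlier results known, so the count is a description only. Of the 8 genes above the floor in WT, 1 was called higher, HIC2. With 2 or 3 matches, 18.1% of 182 genes were called higher and 14.3% lower. With 1 match, 13.4% of 1355 were higher and 11.1% lower. With 0 matches, 11.8% of 12538 were higher and 13.5% lower. These shares also count genes that passed the filter through 1 group alone, and the bins differ in UTR length, with medians of 5692 bases for 4 or more matches and 5048, 2909 and 1169 for the others. NR6A1 rose without reaching the fold required, and SMC1A and ZBTB37 did not pass.

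Transcripts known to be bound by IGF2BP proteins were also listed. Of 12, 10 were tested, 3 were called higher and 1 lower, with a median log2 fold change of 0.04. Over all genes tested, 12.6% were called higher and 14.3% lower. ABCB1, a drug efflux pump, had 0, 1 and 0 counts in WT and 483 to 1052 in the clones (ratio 1650, 95% counting interval 296 to 65100). MAPK4 was at least 21.5-fold and GLI1 at least 12.7-fold higher than the floor in WT. CD44 had 11142 to 13853 counts in WT and at most 2 in the clones. ABCB1, MAPK4 and GLI1 passed the filter only through the clones and CD44 only through WT, so each had to differ. MYC did not pass (log2 0.17 ± 0.23 SE, adjusted p = 0.549), and IGF2 and H19 were too low to be tested.
Of 13 m6A writers, erasers and readers, whose mark the IGF2BP proteins also read, 0 were called, 5 rose and 1 fell at the adjusted p (6 and 2 without WT-2). The adjusted p alone was passed by 63.7% of all genes tested.

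Of 12 listed pluripotency genes, 9 were too low to be tested, among them NANOG and ZFP42. SOX2 rose from 3 to 12 counts in WT to 274 to 410 in the clones (log2 5.27 ± 0.33 SE), KLF4 fell by 2.95 ± 0.17 and POU5F1 by 1.06 ± 0.33, which did not pass without WT-2 (-0.76, adjusted p = 0.0664). The paralogs of SALL4 were all called higher, as were 12.6% of all genes tested. SALL1 and SALL3 had no counts in WT, passed the filter only through the clones and so had to differ. SALL1 was at least 121-fold and SALL3 at least 29.9-fold above the floor in WT, and SALL2 rose by 3.65 ± 0.50 on the log2 scale. SALL2 had 29, 129 and 30 counts in WT, and without WT-2 its log2 fold change was 4.85 ± 0.20 (adjusted p = 2.55e-09).
Of 8 other HMG genes, 1 was called higher, HMGN5 (3.76 ± 0.26), 5 rose and 1 fell at the adjusted p (3 fell without WT-2). Other oncofetal genes split. Of 12, 7 were tested, GPC3 (at least 333-fold above the floor) and PLAC1 (log2 4.2, and 4.85 without WT-3) were called higher, and ALPP, PEG10, ROR1 and FOLR1 lower. GPC3 passed the filter only through the clones and ALPP only through WT, so each had to differ. Beside these lists, 12.6% of all genes tested were called higher, 14.3% were called lower and 63.7% passed the adjusted p.

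SNAI1 binds E-boxes of the form CAGGTG or CACCTG. Promoter windows from 250 bases before to 50 after the start were held in the RefSeq table for 6 members, in 9 windows. Of these windows 1 held such an E-box, the second HMGA1 start, against 20.6% of 35116 promoters. With CANNTG, 5 of the 9 windows, from 4 of the 6 members, held a match, against 68.7% of all promoters. Either strand counted, and the letters say nothing of binding.

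The genes whose levels were most like each member over the 9 libraries were named by Pearson's r of log2(CPM + 1), as a description. For LIN28B they were DSC3, SH3GL3 and SALL1 (r of 0.9998 or more), and for TRIM71 TSPAN7, ELAVL2 and SLC6A15. For IGF2BP1 they included TBX3 and BMP7, and for IGF2BP3 they were DHCR7, CNRIP1 and PARS2. HMGA1 was closest to OGDH (0.9983), MFN2 and TNIP1, IGF2BP2 to SUPT6H (0.9947), SLC41A1 and EIF4G1, and HMGA2 to PITPNB (0.9919), SNX27 and FAM86EP. The genes closest to SALL4 were ARHGEF26-AS1 and 2 without a symbol. These names depend on the measure. With a pseudocount of 0.1 in place of 1, IGF2BP1 had none of its 3 genes in common, and with Spearman's rank correlation 6 of the 8 members had none. Such values are common here, because WT and the clones lie far apart at many genes, and 3361 genes had an r above 0.9 with LIN28B.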

How the data were processed

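RNA-sequencing of 9 libraries was analysed from the deposited counts, whole read pairs per gene and not normalized. The authors made stranded libraries from ribosome-depleted total RNA, ran Trimmomatic 0.36 on the reads, then STAR 2.7.2b on GRCh38, and counted pairs with featureCounts (Subread 2.0.0) on gencode 38, at a mapping quality of at least 30, both mates aligned, strand not used. Counts came without molecular identifiers. Symbols were found for 60463 of 60708 genes (99.6%).

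Genes were filtered with filterByExpr, scaled by TMM and tested with edgeR 4.0.16 (quasi-likelihood, R 4.3.3), with Benjamini-Hochberg adjustment over all genes tested, each comparison in a fit of its own. DESeq2 1.42.0, other normalizations and filters, the replicate block and leaving out each library were alternatives. The fits were tested on simulated data. A group at 0 was set at 3 counts per library for lower bounds, and ratios against 1 to 3 counts had exact 95% counting intervals. UTRs and hosts came from gencode 44 on the same build. Named genes were the members, up to 4 called genes per list with the largest change, lists of 3 or fewer in full, overlapping genes and the 3 genes most like each member. Genes that could reveal sex were left out of the last, and some genes that the rule names are not reported here. The members and lists were chosen with earlier results of these data known.

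Labels give the groups the same replicate numbers, but same-numbered libraries did not deviate together, with correlations of deviations from the group means between -0.387 and 0.331, so the numbers were not used as pairs. Tables and plots were made in Python 3.11.15 (matplotlib 3.10.9, scipy 1.17.1, numpy 2.4.6, pandas 2.3.3).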

Additional observations from a re-analysis of the deposited data

Results flagged for a closer look

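The clones differed from each other in 4 members by the test of the difference itself. The log2 difference, CS16 minus CS19, was 0.79 for LIN28B, 0.65 for HMGA1, 0.38 for IGF2BP1 and 0.30 for TRIM71. Over 14 alternatives the highest adjusted p (edgeR or DESeq2) was 0.0231 for LIN28B, 0.571 for HMGA1, 0.366 for IGF2BP1 and 0.498 for TRIM71. The last 3 of these values came from the fit that shares its spread with the WT libraries, and TRIM71 passed in 5 of the 14.

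Among the 6 libraries labelled SNAI1-KO, the highest library lay apart in 2 members by Dixon's ratio of the gap to the range, 0.647 for IGF2BP3 (CS19-2) and 0.663 for SALL4 (CS19-1). For independent values of a normal distribution, chance gives such a ratio in about 1 of 20 groups. These libraries come from 2 clones, and SALL4 rests on 7 to 28 counts, so that rate does not carry over here.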

How the results depend on the processing

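The members called in SNAI1-KO against WT numbered 5 in all 17 alternatives that kept the fold required, leaving out WT-2 included. With a log2 fold change of 1 in place of 2, members called lower numbered 2 in SNAI1-KO against WT and 2 in CS19 against WT, with IGF2BP2 added, and IGF2BP3 was called higher. With the replicate block, members called numbered 5, 4 and 5 in SNAI1-KO, CS16 and CS19 against WT and 0 between the clones, and HMGA2 in CS16 lost its adjusted p (0.0829). Between the clones, members past the adjusted p fell from 4 to 1 in the fit shared by 3 groups and to 3 with the replicate block. No direction of a tested member reversed. Leaving out each library was added for the other named genes after the data were seen, and 2 that did not pass changed sign, WDR82 (-0.24 to 0.13) and MALSU1 (-0.11 to 0.30). SPACA6 and MIR100HG stayed called lower and MIR99AHG higher in each. Over all genes, calls lower in SNAI1-KO against WT rose from 2802 to 4320 with DESeq2 and to 5002 without the filter, and the median of all genes in CS16 against WT moved to -0.138 with DESeq2. Depth limited LIN28A, DPPA4 and SALL4, at most 28 counts in a library.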
